A study of Mus musculus with 6 samples.

Results

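The RNA of 52 rows of old interspersed repeats was compared between mouse embryonic fibroblasts lacking β-actin and wild-type fibroblasts. The rows were all LINE or SINE entries of the deposited repeat tables whose family was L2, CR1, RTE-X, RTE-BovB, Dong-R4, L1-Tx1, MIR, 5S-Deu-L2 or tRNA-Deu, 52 of 1336 rows in all. A conserved element of the L2 family, UCON86, was left out by name. The rows comprised 45 LINE and 7 SINE subfamilies: 24 CR1, 13 L2, 5 MIR, 4 RTE-X and 2 RTE-BovB rows, and 1 row each of Dong-R4, L1-Tx1, 5S-Deu-L2 and tRNA-Deu. They were chosen by annotated family and not by any measured value, and the files hold nothing on the age of an element.

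The knockout group (KO) consisted of 3 libraries of fibroblasts labelled as β-actin knockout, Actb-/- in the series title. The wild-type group (WT) consisted of 3 libraries of fibroblasts with no other treatment or allele given. Both groups were labelled BALB/c, from embryos 10.5 days old, and total RNA was sequenced after depletion of ribosomal RNA with a TruSeq Ribo-Zero kit. The design text calls the 3 samples of each genotype biological replicates, and the sources used here do not say whether they came from separate embryos or cultures, so the p-values measure the spread between these samples. The tables hold repeats and structural RNA and no protein-coding gene, so neither Actb itself nor markers of fibroblasts were analysed here.

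LINEs are retrotransposons that encode their own reverse transcriptase, and SINEs are short elements that borrow it. L2 and CR1 elements, L3 among them, belong to related LINE lineages that spread in the ancestors of mammals, and MIR elements are SINEs with a tRNA-derived head and a tail that resembles the end of L2, whose machinery is thought to have copied them. Elements of these groups have long ceased to move in the mouse genome, so their copies are fixed fragments, many of them in introns and between genes, and a few act as enhancers or other regulatory sequence. A count for such a row therefore sums reads over many scattered copies, and a read that comes from the intron or untranslated region of a host gene looks the same as one from a transcript begun within the element. In bulk RNA, fewer cells of a kind and less RNA per cell cannot be told apart either.

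Total counts ran from 7708630 in WT replicate 1 to 19288620 in KO replicate 1, and the 3 rRNA rows took 84.8%, 52.9% and 77.0% of them in KO replicates 1, 2 and 3 and 32.4%, 84.1% and 73.7% in WT replicates 1, 2 and 3. Levels are therefore given as normalized CPM, counts scaled to an effective library size that TMM, a trimmed mean of the log ratios between libraries, gives over all tested rows. A change shared by most repeat rows could not be seen on this scale. Over all 1336 rows 1193 had enough counts to be tested, and 69 of these, 5.78%, differed between KO and WT at an adjusted p below 0.05 (edgeR quasi-likelihood test, Benjamini-Hochberg over all tested rows). Of them 26 were higher in KO, 2.18% of the rows tested, and 43 lower, 3.60%.

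Most of the old LINE and SINE RNA was at nearly the same level in KO and WT cells. MIR and L2 rows, which held the great majority of the counts, did not pass the test, and the intervals of their family totals lay between 0.876 and 1.12 times the WT level. Of the 52 rows, 38 had enough counts to be tested, and 2 of these, 5.26%, were lower in KO, the L3b subfamily of the CR1 family and the L1-Tx1 element MARE6. No row passed as higher in KO by edgeR, DESeq2 or limma-voom, and 2 rows with a fold change above 1, L4_A_Mam and L5, had an unadjusted p below 0.05 in edgeR. The share of rows called was close to the 5.78% of the whole table. In 4 of the 38 rows, 10.5%, the 3 KO libraries lay all above or all below the 3 WT libraries, whereas 25.8% of all tested rows did so. At an unadjusted p below 0.05 the numbers were 4 of 38, 10.5%, and 249 of 1193, 20.9%. The median log2 fold change of the 38 rows was 0.03, with an interquartile range of -0.05 to 0.25, against 0.01 over all tested rows, with an interquartile range of -0.12 to 0.17. It was -0.01 for the 25 rows averaging 50 counts or more and 0.30 for the 13 tested rows below that.

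**Figure D1:**
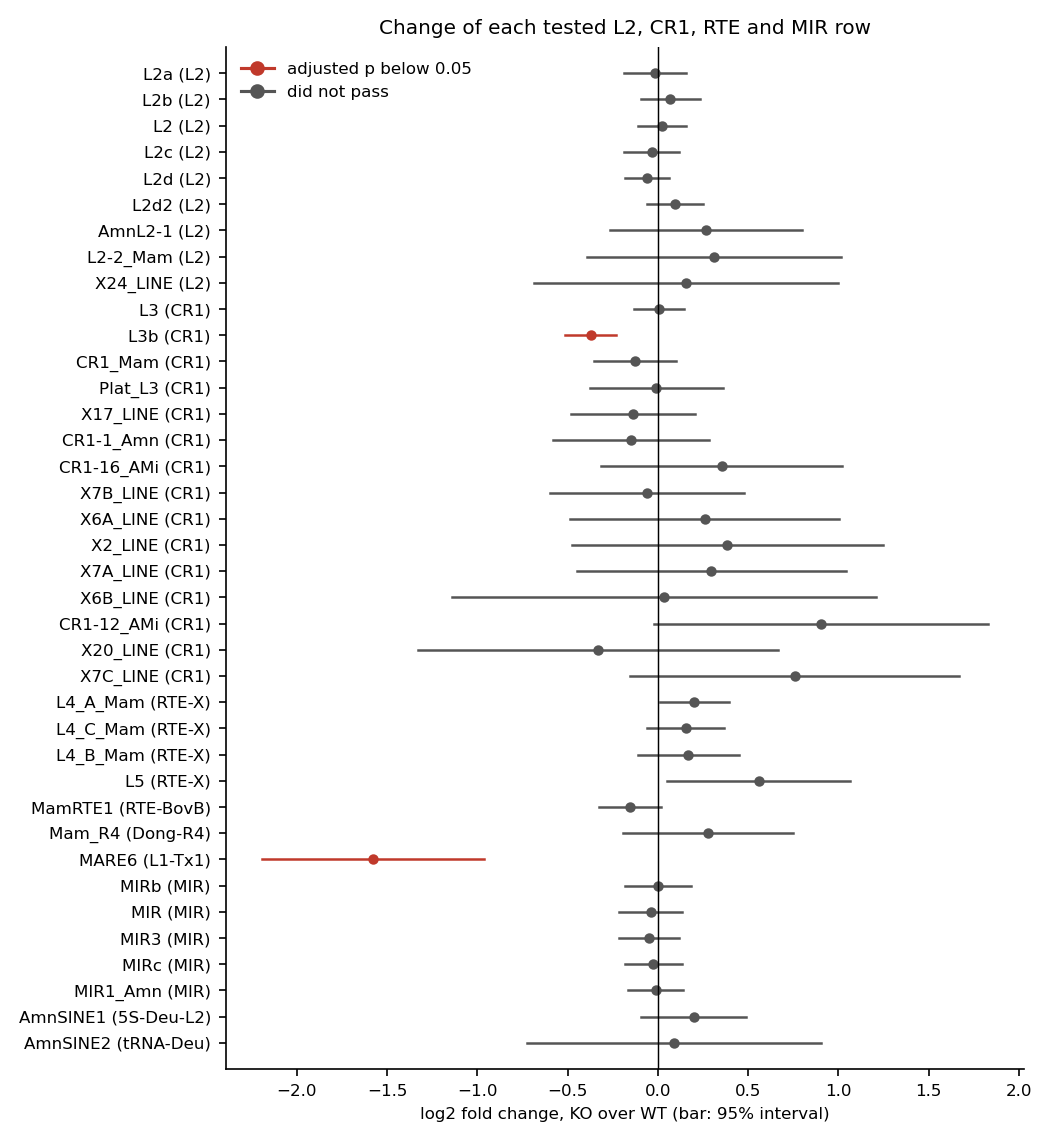
Log2 fold change of each of the 38 tested rows, KO over WT, with its 95% interval from the edgeR fit, grouped by family and ordered within it by level. MARE6 and L3b, in red, lie below 0 with their whole interval, and L4_A_Mam and L5 lie above 0 with theirs without passing the test. The rows with the most counts, L2a to L2d2 and the 5 MIR rows, lie close to 0 with short intervals.

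MIR elements held between 55.4% and 56.2% of all counts of the 52 rows in a library, and L2 elements between 39.0% and 39.9%. The 12 rows that averaged 1000 counts or more, which were the 6 main L2 rows, the 5 MIR rows and L3, held 97.2% of the counts. The order of these 12 rows by count was the same in all libraries but one: WT replicate 2 had more counts of L2c than of L2, and the other 5 libraries fewer. These are orders of row totals, which depend on how many copies a subfamily has and how long they are, and not levels per copy.

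MIRb, the largest MIR subfamily by counts, stood at 1434, 1399 and 1330.1 normalized CPM in KO replicates 1, 2 and 3, against 1368, 1419 and 1375 in WT replicates 1, 2 and 3. The groups overlapped, and the means differed by less than 1 normalized CPM, at 1388 ± 52.7 in KO and 1387 ± 27.7 in WT (SD, n = 3). The log2 fold change was 0.00051 (standard error 0.08), and its 95% interval spanned 0.882 to 1.13 times the WT level. The subfamily named MIR, the element after which the family is called, stood at 1075, 1036 and 984 normalized CPM in KO and 1032, 1098 and 1051 in WT. The other MIR subfamilies overlapped between the genotypes in the same way. MIR3 averaged 748 ± 41.5 normalized CPM in KO and 775 ± 18.4 in WT, MIRc 716 ± 34.3 and 728 ± 15.6, and MIR1_Amn 366 ± 23.5 and 369 ± 5.40, the KO value first in each pair. None of the 5 MIR rows passed, with edgeR adjusted p-values of 0.748 or more, and the log2 fold changes ran from -0.05 for MIR3 upwards. As a family total, MIR RNA stood at 4430, 4277 and 4042 normalized CPM in KO and 4233, 4402 and 4324 in WT. The family log2 fold change was -0.02 (standard error 0.08), an interval of 0.876 to 1.11 times the WT level (edgeR adjusted p over 58 families = 0.911).

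L2 elements, the autonomous LINEs whose tail MIR elements resemble, were likewise close to the WT level. L2a stood at 1005, 957 and 911 normalized CPM in KO, against 948, 985 and 970.3 in WT, where the KO libraries enclosed the WT ones. L2b had 927, 899 and 847 normalized CPM in KO and 836, 855 and 859 in WT, a log2 fold change of 0.07 (standard error 0.07) that did not pass (edgeR adjusted p = 0.642). The row named L2 averaged 506 ± 10.7 normalized CPM in KO and 498 ± 6.36 in WT, and L2c averaged 475 ± 26.1 in KO and 486 ± 16.1 in WT. L2d averaged 123 ± 6.75 in KO and 128 ± 2.53 in WT, and L2d2 averaged 86.4 ± 8.11 in KO and 80.7 ± 1.47 in WT. None of these rows passed the test. AmnL2-1 was rarer, at 5.27, 3.33 and 3.64 normalized CPM in KO and 3.11, 3.90 and 2.99 in WT, from 30 to 75 counts per library. Of the 9 tested L2 rows 6 had a fold change above 1, and the 4 L2 rows that were not tested, X13_LINE, X15_LINE, L2-1_AMi and L2-1_Crp, had at most 17 counts in any library. The L2 family total was 3182, 3046 and 2909 normalized CPM in KO and 2981, 3054 and 3015 in WT. Its log2 fold change was 0.01 (standard error 0.07), an interval of 0.912 to 1.12 times the WT level (edgeR adjusted p over 58 families = 0.917).

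KO replicate 1 held the highest value of 7 of the 9 most abundant rows, and KO replicate 3 the lowest of 7. On the normalized scale the KO libraries thus spread wider in these rows than the WT libraries. Over the 12 rows with at least 1000 counts the median coefficient of variation was 4.85% in KO and 1.99% in WT. Counting error alone gives 1.14%. These rows largely moved together, with the group's sum at 7971, 7678 and 7294 normalized CPM in KO replicates 1, 2 and 3. They are therefore not independent measures of spread. In ratios within a library, where its scale cancels, KO was not consistently wider. The KO SD was below that of WT for MIR to L2 families, L2b to L2a and MIRc to MIRb. It was above for L2c to L2a, MIR3 to MIRb and L2d2 to L2d. For the 13 rows between 50 and 1000 counts that coefficient was 10.2% in KO and 12.4% in WT, beside a counting error of 8.54%. For the 13 tested rows with a mean under 50 counts it was 24.0% in KO and 35.8% in WT, against a counting error of 31.1%. The rare rows were therefore limited by their counts. Read counts without molecular identifiers are not independent molecules, so these counting errors are lower limits of the expected spread. The spread seen in 3 libraries is itself imprecise and can lie below that limit, as it did in KO for the rare rows.

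Among the 15 tested CR1 rows a single subfamily passed, and it was lower in KO. L3b, a relative of the main subfamily L3, stood at 29.8, 29.7 and 28.8 normalized CPM in KO, against 37.8, 41.2 and 35.8 in WT. Every KO library lay below every WT library, and the KO libraries lay closer together than the WT libraries. The means were 29.4 ± 0.553 in KO and 38.3 ± 2.72 in WT (SD, n = 3), a log2 fold change of -0.37 (standard error 0.06), or 0.772 of the WT level with an interval of 0.699 to 0.853 (edgeR adjusted p = 0.0133). L3 itself, the largest CR1 row by counts, stood at 148, 148 and 137 normalized CPM in KO and 136, 152 and 144 in WT. The groups of L3 overlapped, and the log2 fold change was 0.01 (standard error 0.06) (edgeR adjusted p = 0.970). The L3b call was lost without KO replicate 2 (log2 fold change -0.38, edgeR adjusted p = 0.0570) and without KO replicate 3 (-0.36, edgeR adjusted p = 0.0517). It was also lost without both WT replicate 1 and KO replicate 2 (-0.38, edgeR adjusted p = 0.158). On the scale of total counts, rRNA included, where the median of all rows moved to -0.36, no row of the whole table passed and L3b was at -0.72.

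The ratio of L3b to L3 counts within a library does not depend on any scaling. It was 20.2, 20.1 and 21.0 L3b counts per 100 L3 counts in KO, against 27.9, 27.1 and 25.0 in WT. The KO ratios lay below all WT ratios, at 0.766 of the WT mean. The sources used here do not say how a read that matches both subfamilies was divided, and the part of that division in this ratio was not tested.

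CR1_Mam, a CR1 subfamily of mammals, stood at 28.9, 28.1 and 26.3 normalized CPM in KO and 26.2, 34.2 and 31.7 in WT, and overlapped between the genotypes (log2 fold change -0.13, edgeR adjusted p = 0.519). Plat_L3 averaged 9.23 ± 1.59 in KO and 9.27 ± 1.27 in WT. X17_LINE averaged 6.20 ± 0.632 in KO and 7.08 ± 0.865 in WT, and CR1-1_Amn 4.82 ± 0.267 in KO and 5.43 ± 1.16 in WT, and neither passed. Of the 15 tested CR1 rows 8 had a fold change above 1 and 7 below. The highest value of all 38 rows was that of CR1-12_AMi, with 4, 18 and 21 counts in KO and 11, 4 and 9 in WT, a log2 fold change of 0.90 with an interval of -0.02 to 1.83 that did not pass (edgeR adjusted p = 0.250). The remaining 9 CR1 rows were not tested and had at most 19 counts in any library. Among them CR1-L3B_Croc had 0 counts in all 6 libraries, where 3 counts correspond to between 0.124 and 0.390 normalized CPM. The CR1 family total was 242, 240.1 and 227 normalized CPM in KO and 234, 266 and 245 in WT, a log2 fold change of -0.07 (standard error 0.06) (edgeR adjusted p over 58 families = 0.456). Without L3b the family stood at 6.67, 6.91 and 6.81 counts per 100 L2 counts in KO and 6.56, 7.38 and 6.94 in WT, which overlapped.

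MARE6, the only row of the L1-Tx1 family, showed the largest difference of the 38 rows in size. L1-Tx1 elements are distant relatives of LINE-1 first described in frogs. MARE6 had 16, 27 and 34 counts in KO replicates 1, 2 and 3, against 110, 53 and 78 in WT replicates 1, 2 and 3. Those counts correspond to 1.96, 1.34 and 2.29 normalized CPM in KO and 4.56, 6.89 and 5.43 in WT. The highest KO library, replicate 3, lay below the lowest WT library, replicate 1, so that the groups did not overlap. The means were 1.86 ± 0.483 in KO and 5.63 ± 1.18 in WT (SD, n = 3), a log2 fold change of -1.58 (standard error 0.27) (edgeR adjusted p = 0.0136). The fitted ratio was 0.335 of the WT level, with an interval of 0.219 to 0.512. Per 10000 L2 counts of the same library there were 6.16, 4.40 and 7.88 MARE6 counts in KO and 15.3, 22.6 and 18.0 in WT. As the only member of its family it was also tested among the family totals, of which 6 of 58, 10.3%, passed, and its total was 1 of the 6 (edgeR adjusted p over 58 families = 0.000495). This is the same count tested again and adds no evidence. Among rows the call was lost without KO replicate 2 (log2 fold change -1.32, edgeR adjusted p = 0.0570) and without WT replicate 3 (-1.57, edgeR adjusted p = 0.0546). Calls over the whole table numbered 22 and 28 in these fits, against 69 with all libraries. The same held without both WT replicate 1 and KO replicate 2 (-1.48, edgeR adjusted p = 0.0717) and on total counts (-1.96, edgeR adjusted p = 0.998). With the replicate number as a block in the fit MARE6 did not pass either (-1.61, edgeR adjusted p = 0.0569). The tables do not give counts per genomic copy.

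**Figure D2:**
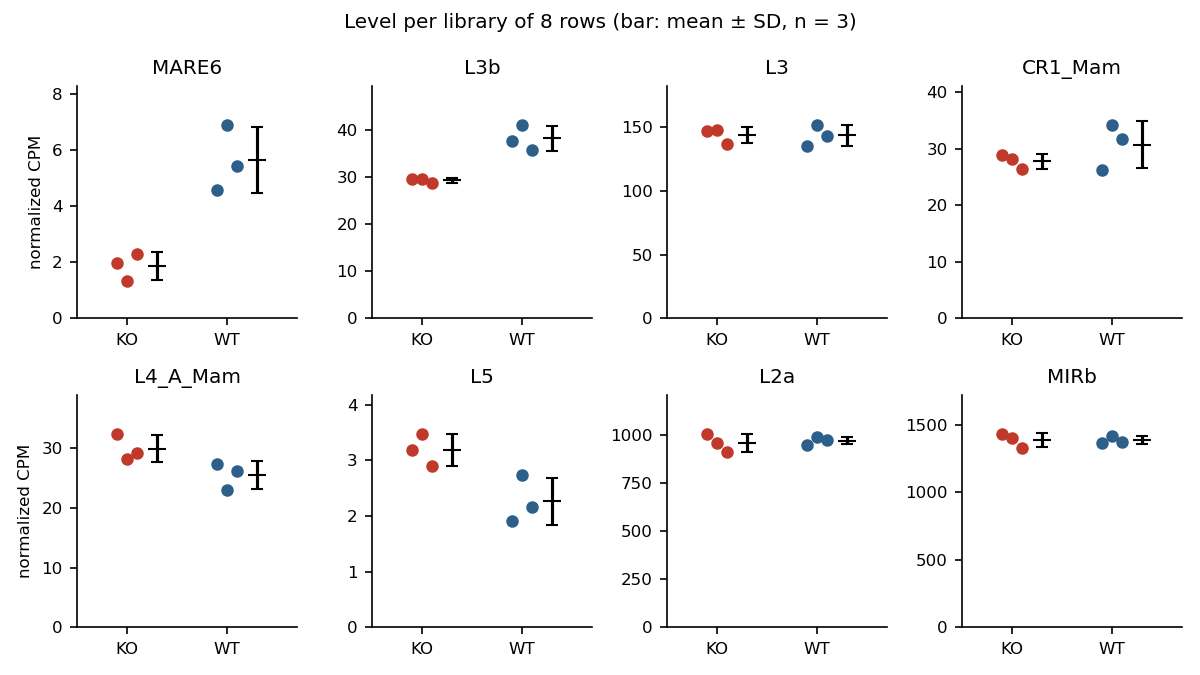
Normalized CPM of 8 rows in each library, KO at the left in red and WT at the right in blue, with mean ± SD of 3 libraries beside the points. MARE6 and L3b lie lower in all KO libraries, L4_A_Mam and L5 lie higher in all KO libraries without passing the test, and L3, CR1_Mam, L2a and MIRb overlap.

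RTE rows lay on both sides of their WT level, and none passed. RTE elements are compact LINEs, of which the BovB branch is known for its spread in cattle and snakes. All 4 RTE-X rows had a fold change above 1. L4_A_Mam stood at 32.5, 28.2 and 29.2 normalized CPM in KO, against 27.5, 23.0 and 26.2 in WT. The groups did not overlap, the lowest KO library lying just above the highest WT library, and the log2 fold change was 0.20 (standard error 0.08) (edgeR adjusted p = 0.216). L5 had 26, 70 and 43 counts in KO and 46, 21 and 31 in WT, which correspond to 3.19, 3.48 and 2.90 normalized CPM in KO and 1.91, 2.73 and 2.16 in WT. It did not overlap either, at a log2 fold change of 0.56 (standard error 0.22) (edgeR adjusted p = 0.191). L4_C_Mam averaged 23.3 ± 2.33 in KO and 21.0 ± 1.60 in WT, and L4_B_Mam 11.4 ± 1.37 in KO and 10.1 ± 0.841 in WT, with overlapping libraries. The RTE-X family total was 67.7, 70.6 and 65.2 normalized CPM in KO and 63.1, 54.8 and 58.8 in WT. Its log2 fold change, 0.20 (standard error 0.07), did not pass (edgeR adjusted p over 58 families = 0.103). It passed in 3 of 14 alternative settings. These were without WT replicate 1 (0.25, edgeR adjusted p = 0.0286), without structural RNA rows (0.19, edgeR adjusted p = 0.0454) and with the rRNA level of the library as a covariate (0.23, edgeR adjusted p = 0.00849). It did not pass with DESeq2 (DESeq2 adjusted p = 0.277) or limma-voom (limma-voom adjusted p = 0.117). On the scale of total counts it lay at -0.20.

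MamRTE1, the main row of the RTE-BovB family, stood at 25.9, 23.4 and 25.0 normalized CPM in KO and 25.5, 29.7 and 27.8 in WT, a log2 fold change of -0.15 (standard error 0.08) that did not pass (edgeR adjusted p = 0.297). The KO and WT libraries overlapped through WT replicate 1. MamRTE2 had 5 counts over the KO libraries and 9 over the WT libraries and was not tested.

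The remaining rows were rare. Mam_R4, of the Dong-R4 family, whose relatives in other animals insert at fixed sites, stood at 9.07, 6.75 and 8.43 normalized CPM in KO and 5.68, 5.33 and 8.42 in WT (log2 fold change 0.28, standard error 0.21, edgeR adjusted p = 0.486). AmnSINE1 is a chimeric SINE with a head derived from 5S rRNA and a tail like that of L2, and some of its copies are known as enhancers in the developing mouse brain. It had 88, 246 and 200 counts in KO and 289, 74 and 142 in WT, which correspond to 10.8, 12.2 and 13.5 normalized CPM in KO and 12.0, 9.62 and 9.88 in WT. The libraries overlapped through WT replicate 1, and the row did not pass (log2 fold change 0.20, standard error 0.13, edgeR adjusted p = 0.427). AmnSINE2, its tRNA-headed relative, had 3 to 24 counts per library and averaged 0.909 ± 0.213 normalized CPM in KO and 0.787 ± 0.344 in WT.

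**Figure D3:**
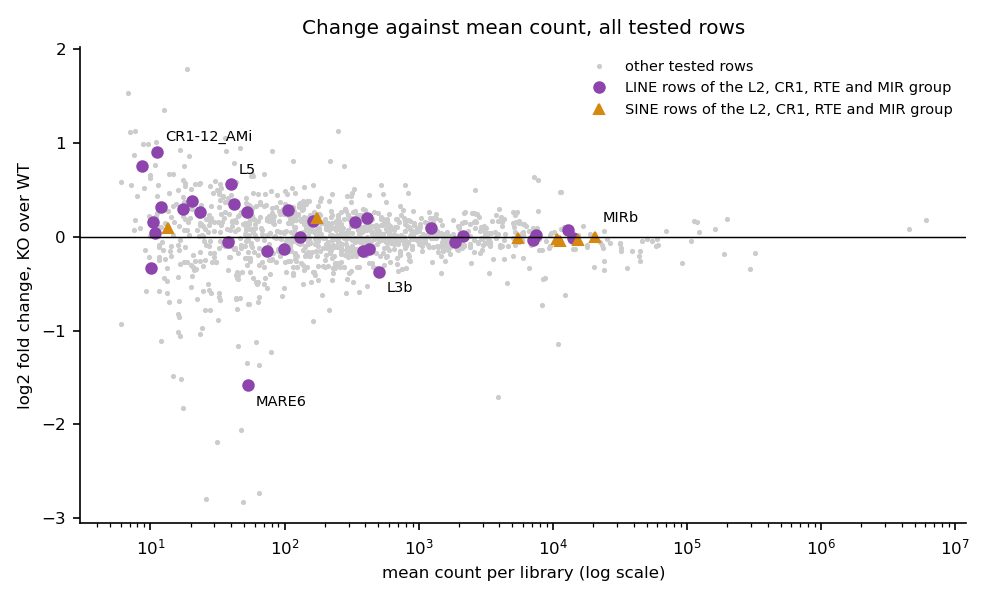
Log2 fold change, KO over WT, against the mean count per library on a log scale for all 1193 tested rows, with the LINE rows of the group as purple circles and its SINE rows as orange triangles. The rows of the group with many counts, MIRb the most, lie close to 0, and the scatter widens towards low counts as it does for the other rows in grey. MARE6 stands apart from the rest of the group at -1.58, while the rows in grey reach -2.82.

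The share of these elements differed more between libraries than between genotypes. The 52 rows took 2.52%, 4.36% and 3.27% of the counts outside structural RNA in KO replicates 1, 2 and 3, and 4.46%, 2.44% and 3.38% in WT replicates 1, 2 and 3. The means were 3.38% ± 0.926 in KO and 3.42% ± 1.01 in WT (SD, n = 3). The highest shares, 4.36% and 4.46%, belonged to KO replicate 2 and WT replicate 1, the libraries of their genotypes with the least rRNA, at 52.9% and 32.4% of all counts, and the lowest, 2.52% and 2.44%, to KO replicate 1 and WT replicate 2, those with the most, at 84.8% and 84.1%. On the TMM scale the sum of the rows varied less, at 7971, 7678 and 7294 normalized CPM in KO and 7559.6, 7830.0 and 7695 in WT. The part of the rRNA in the share was not tested.

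**Figure D4:**
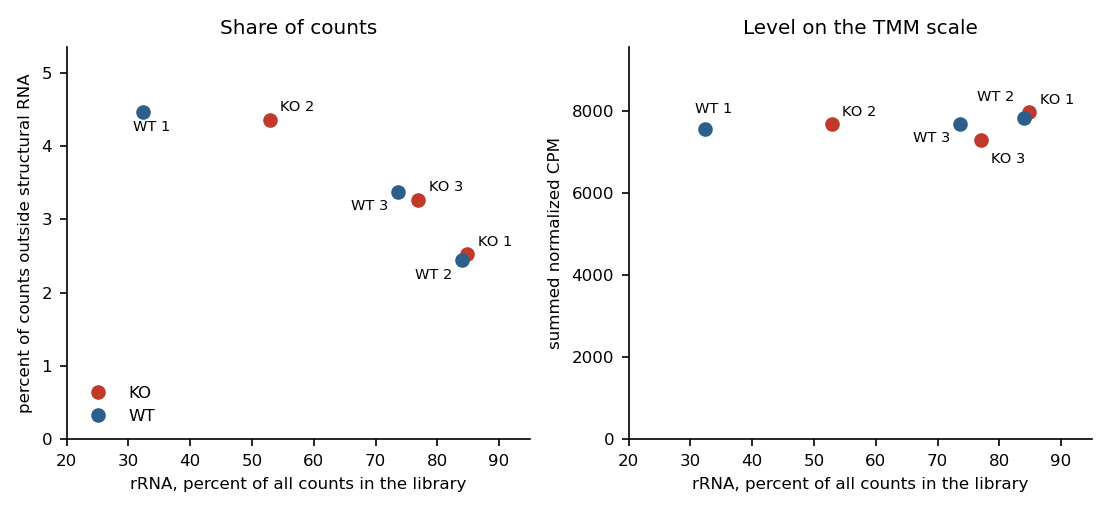
Share of the 52 rows in the counts outside structural RNA (left) and their summed normalized CPM (right) against the percentage of rRNA in each library, KO in red and WT in blue, labelled by replicate. The share is 4.36% and 4.46% in the libraries with the least rRNA and 2.52% and 2.44% in those with the most, while the normalized sum stays between 7294 and 7971.

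The proportions among the rows tended to differ between replicates by more than sampling of reads alone would give. KO replicates 1 and 3 came closest to sampling alone, at the low end of the range below, and no pair was tested. Over rows with at least 10 counts in a pair of libraries, the chi-square of their counts over its degrees of freedom, which is about 1 where libraries differ by sampling alone and otherwise grows with depth, was 1.17 to 2.41 for the 6 pairs of libraries of one genotype. For the 9 pairs of a KO with a WT library it was 2.22 to 6.08, and 1.65 to 4.35 without L3b and MARE6. Over all rows outside structural RNA the same measure was 158 to 1165 within a genotype and 11.0 to 1259 between genotypes, so that no pair of libraries was one library deposited again. For other old elements, within a genotype, the measure was 1.98 to 2.59 for the 262 DNA transposon rows, 1.37 to 2.17 for the 60 rows of the retrovirus-like MLT, MST and THE1 elements and 28.9 to 223 for the 84 LINE-1 rows named L1M. The differences between these lists were not tested.

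Some ratios within a library differed narrowly between the genotypes. There were 1.39, 1.40 and 1.39 MIR counts per L2 count in KO, against 1.42, 1.44 and 1.43 in WT. The KO ratios lay below all WT ratios, at 0.974 of the WT mean. L2b stood at 92.2, 94.0 and 93.0 counts per 100 L2a counts in KO and 88.1, 86.8 and 88.5 in WT, with KO above. RTE-X elements stood at 21.3, 23.2 and 22.4 counts per 1000 L2 counts in KO and 21.2, 17.9 and 19.5 in WT, again without overlap. Such separation was common in these libraries. Of the 66 ratios between pairs of the 12 largest rows 16 did not overlap between the genotypes, 24.2%, and of the ratios between pairs of all 268 rows of that depth outside structural RNA 31.4% did not. These ratios were picked after the levels were known and share their counts, so they are descriptions.

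**Figure D5:**
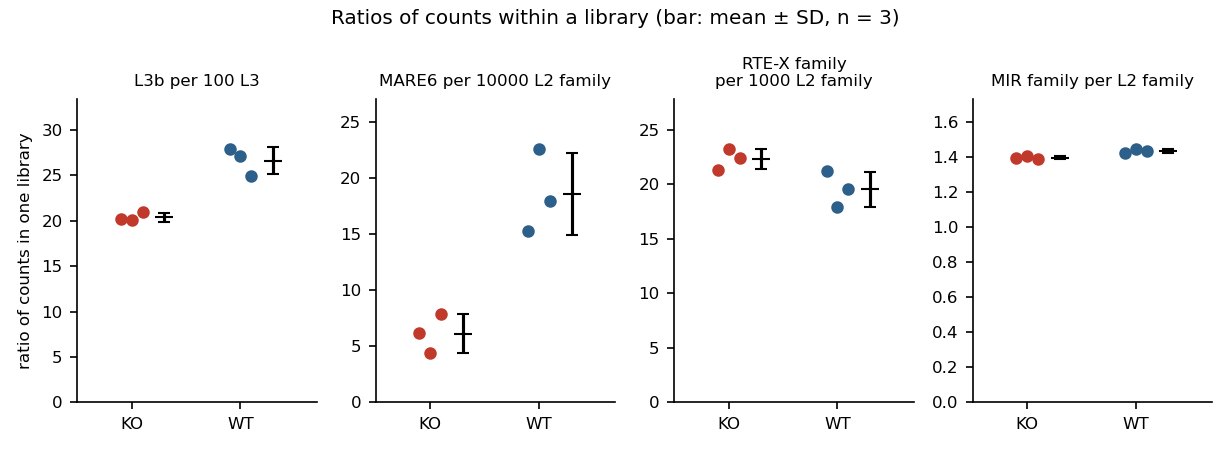
Ratios of counts within each library for L3b per 100 L3 counts, MARE6 per 10000 L2 family counts, RTE-X family per 1000 L2 family counts and MIR family per L2 family count, KO at the left in red and WT at the right in blue, with mean ± SD of 3 libraries. In all 4 panels the KO libraries do not overlap the WT libraries, by a wide gap for L3b and MARE6 and by a narrow one for the RTE-X and MIR families. The 4 ratios shown are among 16 picked after the levels were known, of which 8 did not overlap.

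Beside the 2 of 38 rows called here, 1 of 84 LINE-1 rows named L1M passed and was higher in KO (median log2 fold change 0.03), 11 of 234 tested DNA transposon rows passed, 4 higher and 7 lower in KO (median -0.03), and 2 of 54 tested MLT, MST and THE1 rows passed, both lower in KO (median 0.01). These other old elements thus had medians within 0.03 of 0 as well, and calls in 1.19%, 4.70% and 3.70% of their tested rows.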

How the data were processed

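The authors deposited 1 table per library, 6 in all, of estimated counts, which the file names call fractional, over 1336 repeat rows. The counts were not normalized, and as all were whole none was rounded. The submitters' processing notes name Bowtie2, Trimmomatic and FastQC 0.11.5 as tools and mm10 and GRCm38 as builds. Neither the repeat counter and annotation, nor the use of strand, nor the division of reads that match several rows is stated there, so subfamilies with similar sequence may exchange reads.

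Counts were analysed in R 4.3.3. Rows were filtered with filterByExpr in edgeR 4.0.16, scaled by TMM and tested for KO against WT by quasi-likelihood, with p-values adjusted after Benjamini and Hochberg over all tested rows. Standard errors came from the test statistic, and intervals are at 95%. Family totals with a mean of at least 10 counts, 58 of 66, were tested with the same library sizes. DESeq2 1.42.0 and limma 3.58.1 (voom) were alternatives, beside other scalings and filters, the rRNA level as a covariate, a replicate block and leaving out libraries. The procedure was tested on counts simulated for each row separately from its fitted spread, which leaves out variation shared between rows. Depth differed, with a median of 72.5 to 230 counts per library over the tested rows of the group.

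The rows, the lists and the alternatives were chosen with earlier results of these data known. Rows were named if they passed, were among the 2 largest of their family, had 1 of the 5 highest or 5 lowest fold changes among rows averaging 50 counts or more, or stood on a fixed list of 20 names, which gave 26 rows. L2d2, Plat_L3, CR1-12_AMi and the rows not tested are named besides, after their values were seen. No consensus sequence of these repeats was used here, so none is printed.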

Additional observations from a re-analysis of the deposited data

How the results depend on the processing

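Both lower calls, L3b and MARE6, held with DESeq2, limma-voom, DESeq2 size factors, other count filters, the rRNA covariate and without structural RNA rows, and every alternative gave 0 rows of the group higher in KO. The number of lower calls, 2 as reported, ran from 0 to 2 when a library was left out, was 0 without both WT replicate 1 and KO replicate 2 (4 rows at an unadjusted p under 0.05) and 0 on total counts (0 rows at an unadjusted p under 0.05, and 3 over the whole table), each in edgeR. With the replicate block it was 1: L3b passed and MARE6, at -1.61, did not (edgeR adjusted p = 0.0569). The sources used here do not say whether a shared replicate number marks a litter or batch. Deviations of same-numbered KO and WT libraries correlated at -0.55, -0.50 and 0.04 over all tested rows. The highest correlations were those of KO replicate 2 with WT replicate 1 (0.618) and of KO replicate 1 with WT replicate 2 (0.464). The former have the least rRNA of their genotypes and the latter the most. The correlations therefore cannot decide whether the numbers pair the libraries.

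Total-count scaling moved the median of all rows to -0.36 and that of the group to -0.36. On the TMM scale the median of the group, 0.03 as reported, ran from -0.0055 to 0.10 without single libraries. On total counts the L1-Tx1 total was -1.96 and did not pass, and values above 0 as reported turned negative: the totals of L2 (-0.35), RTE-X (-0.20), Dong-R4 (-0.11), 5S-Deu-L2 (-0.24) and tRNA-Deu (-0.39), and the rows L2 (-0.36), L2b (-0.29), AmnL2-1 (-0.16), L3 (-0.30), L4_A_Mam (-0.26), L4_B_Mam (-0.18), L4_C_Mam (-0.21), Mam_R4 (-0.11), MIRb (-0.36), AmnSINE1 (-0.24) and AmnSINE2 (-0.39). The cause was not tested. The RTE-X total passed in 3 of 14 alternatives, at 0.23 with the rRNA covariate, 0.19 without structural RNA rows and 0.25 without WT replicate 1.

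Values near 0 changed sign without single libraries, over ranges of -0.024 to 0.042 for the L2 total, -0.060 to 0.0070 for MIR, -0.13 to 0.27 for tRNA-Deu, -0.057 to 0.015 for L2a, -0.035 to 0.044 for L3, -0.029 to 0.026 for MIRb, -0.067 to 0.0027 for MIRc, -0.053 to 0.035 for MIR1_Amn and -0.10 to 0.29 for AmnSINE2. The RTE-X total ran from 0.15 to 0.25. L3 was at -0.0053 with the rRNA covariate and -0.045 without WT replicate 1 and KO replicate 2, and MIRb at -0.0049 and -0.0048 under the same settings, -0.00013 with limma-voom, -0.0045 without a filter and -0.0027 without structural RNA. The difference in share of counts, KO minus WT, ran from -0.53 to 0.48 percentage points without single libraries. Depth limits the 13 tested rows with a mean under 50 counts.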

Other observations

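The rows that were too rare to test held few counts in either genotype. CR1-13_AMi had 12 counts over the KO libraries and 33 over the WT libraries, X8_LINE 9 and 22, X21_LINE 7 and 17, and X1_LINE 18 and 30, the KO sum first in each pair. X5B_LINE had 2 counts over the KO libraries and 0 over the WT libraries, CR1-L3A_Croc 1 and 5, and CR1-3_Croc 4 and 1. X13_LINE had 21 counts in KO and 22 in WT, L2-1_AMi 14 in each genotype, and L2-1_Crp 11 in KO and 10 in WT. No fold change is given for these rows.

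Within the L2 and MIR families a few proportions between subfamilies did not overlap between the genotypes. L2d2 stood at 70.7, 73.9 and 65.9 counts per 100 L2d counts in KO and 62.7, 61.1 and 65.4 in WT. MIR3 stood at 54.8, 54.0 and 52.9 counts per 100 MIRb counts in KO and 55.1, 55.5 and 56.9 in WT. By contrast L2c stood at 50.3, 48.5 and 50.1 counts per 100 L2a counts in KO and 50.2, 51.2 and 49.3 in WT, and MIRc at 52.5, 50.8 and 51.5 per 100 MIRb counts in KO and 52.0, 51.6 and 53.9 in WT, both with overlap. Of 16 ratios, picked after the levels were known, 8 did not overlap, and they were not tested. Some of the 16 hold the called rows L3b and MARE6, so their share is no measure of the group. Between pairs of all rows outside structural RNA with a mean of at least 1000 counts, 31.4% of the ratios did not overlap. Between pairs of the 12 largest rows of the group it was 24.2%.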
